A study of Mus musculus with 12 samples.

Results

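Macrophage scavenger receptors were followed in injured and intact spinal cord of aged and young mice. The 10 genes were Cd36, Scarb1 and Scarb2 of the CD36 family, the collagenous receptors Msr1 and Marco, the haptoglobin-hemoglobin receptor gene Cd163, the mannose receptor gene Mrc1, the stabilin gene Stab1, the complement receptor gene Vsig4 and the lysosomal gene Cd68. They are 10 of 18194 genes that the array measured with a probe paired with 1 gene alone, and 19 of 45101 probes. They were chosen by family after Cd36 and Msr1 had been seen to be higher in aged mice than in young mice after SCI, so the values of that comparison are given as a description, with no p-value, and nothing is read from a count of them. Each gene was read from its probe of highest mean signal over all arrays, and its other probes served as a check. Of the 10 genes, 8 had a mean signal above 50, the cutoff of the study, in at least 1 group, and only these entered the tests. Marco and Cd163 did not.

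The groups were aged mice 9 days after SCI, young mice 9 days after SCI, intact aged mice and intact young mice, with 3 female C57BL/6 mice (C57BL/6J in the study's methods) in each. The aged mice were 15 to 18 months and the young mice 2 to 3 months old. SCI was a contusion at the level of Th9, and the same level was taken from the intact mice. All mice were perfused with heparinized saline before dissection, and each mouse gave 1 Affymetrix mouse genome array. The values are MAS 5.0 signals, which are linear intensities scaled by the authors to a common level on every array. The share of probes above 50 was 35.05% to 36.73% per array, and all pairs of arrays correlated at an r of 0.842 to 0.951 on the log2 scale. Aged injured replicate 1 gave the highest signal of the 3 aged injured arrays for each of the 8 genes tested.

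Scavenger receptors are cell surface or lysosomal proteins of macrophages that bind and take up modified lipoproteins, dying cells and other debris. They do not form a single gene family, and are grouped into classes by the structure of the protein. In the injured spinal cord, resident microglia and macrophages that enter from the blood take up myelin and dead cells, and lipid-laden macrophages collect in the lesion. Cd36 binds oxidized lipoproteins, thrombospondin and long-chain fatty acids. Msr1 is the founding class A receptor and binds acetylated lipoproteins. In mice, Cd36 is also made by fat, muscle, endothelium and platelets, and Scarb1 and Stab1 by endothelium.

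Promoter sequence was at hand in RefSeq's table of build GRCm38.p6 for 8 of the 10 genes. Msr1 and Scarb1 are named only. A promoter here is the 250 bases before and the 50 bases after the listed start of a gene. Both strands were searched for the core letters of PU.1 (GGAAGT), the factor that directs the macrophage lineage, for AP-1 (TGANTCA), for the E-box of the MITF and TFEB family (CACGTG), which serves lysosomal genes, and for the TATA box (TATAAA). The 3 promoters below are those of Cd36, Vsig4 and Cd68, the genes with a listed promoter whose aged and young injured arrays did not overlap. They are written 5′ to 3′ on the strand of the gene, with the letters of PU.1 (also as ACTTCC, the same letters on the opposite strand) and of AP-1 in capitals.
Cd36 (chr5:17835847-17836146, minus strand): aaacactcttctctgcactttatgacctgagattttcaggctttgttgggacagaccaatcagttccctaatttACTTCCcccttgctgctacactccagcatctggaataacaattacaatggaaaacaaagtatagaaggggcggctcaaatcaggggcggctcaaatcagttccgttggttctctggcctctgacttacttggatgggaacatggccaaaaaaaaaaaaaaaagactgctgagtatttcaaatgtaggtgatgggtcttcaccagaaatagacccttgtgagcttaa
Vsig4 (chrX:96293389-96293688, minus strand): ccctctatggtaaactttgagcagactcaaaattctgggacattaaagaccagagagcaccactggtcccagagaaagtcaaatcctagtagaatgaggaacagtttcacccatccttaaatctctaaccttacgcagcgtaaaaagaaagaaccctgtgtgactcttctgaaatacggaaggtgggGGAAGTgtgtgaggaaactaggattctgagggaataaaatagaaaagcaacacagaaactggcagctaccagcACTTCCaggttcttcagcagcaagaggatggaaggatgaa
Cd68 (chr11:69666121-69666420, minus strand): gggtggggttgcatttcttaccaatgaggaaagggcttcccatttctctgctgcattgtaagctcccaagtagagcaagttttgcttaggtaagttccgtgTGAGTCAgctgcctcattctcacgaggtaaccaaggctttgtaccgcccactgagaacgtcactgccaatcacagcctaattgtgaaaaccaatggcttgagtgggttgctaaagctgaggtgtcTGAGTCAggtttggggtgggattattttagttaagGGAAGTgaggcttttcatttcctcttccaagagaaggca
The PU.1 letters were present in 4 of the 8 promoters, those of Cd36, Mrc1, Vsig4 and Cd68, against 23.8% of 32851 promoters in the table. In Vsig4 they began at -63 and at +11 from the start, in Cd36 at -176 and in Cd68 at +12. AP-1 letters occurred in Cd68 at -149 and -24, against 7.81% of all promoters with at least 1 match. None of the 8 held the E-box, found in 7.15% of all promoters, or the TATA box, found in 13.6%. No match overlapped another. These are matches of letters in a fixed window and show no binding.

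After SCI, Cd36, Msr1, Cd68, Stab1 and Mrc1 rose in both ages, and Scarb1 and Scarb2 rose by less. The fit was limma on the log2 signals of 10511 genes with all 12 arrays, and a gene was called at a Benjamini-Hochberg adjusted p under 0.05 over all of them. Where a group mean lay under 50, the fold is a lower bound with that group set to 50, and where both did, no fold is given. In aged mice 8 of the 8 genes tested were higher after SCI, against a background of 35.6% of all genes called higher. In young mice 7 of 8 were higher, against 33.9%. All 3 injured arrays lay above all 3 intact arrays for 8 of the 10 genes in aged and for 8, Cd163 among them, in young mice, against 36.7% and 37.5% of the genes tested. These counts are no support in themselves, because 6 of the 8 genes passed the cutoff only through an injured group, which favoured their rise. The aged injured arrays are also those on which the genes were proposed. In whole cord tissue, more cells of a type and more RNA per cell cannot be told apart. The p-values rest on a spread per gene that was pooled over all 12 arrays, with 3 mice a group. They therefore do not measure the spread of the compared groups alone.

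Cd36, the class B receptor for oxidized lipids, had signals of 4658.2, 2749.3 and 2913.8 in the 3 aged injured cords and of 868.6, 525.3 and 1063.8 in the young injured cords. In aged intact cord it had 12.2, 11.4 and 12, and in young intact cord 14.9, 8.6 and 8.1. No intact array came near the cutoff, and no aged injured array overlapped the young injured ones. The rise after SCI was at least 66.8-fold in aged mice (adjusted p = 7.2e-09) and at least 15.7-fold in young mice (adjusted p = 4.03e-08). The mean signal was 3440.4 ± 1057.8 in aged injured and 819.2 ± 272.6 in young injured cord (SD, n = 3 each), which is a 4.25-fold ratio of geometric means and a log2 difference of 2.09 (standard error 0.30). With each array left out in turn, that difference lay between 1.80 and 2.31.

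**Figure D1:**
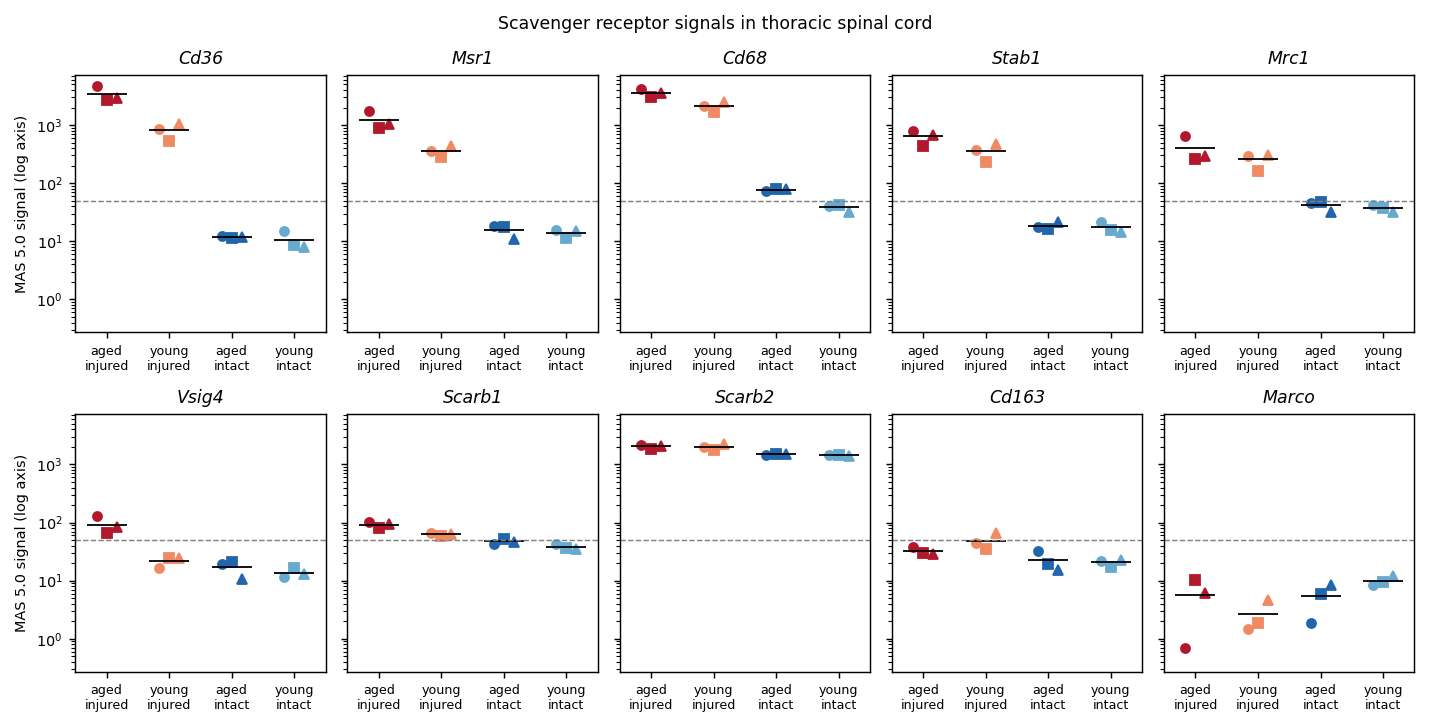
MAS 5.0 signal (log axis) of the 10 scavenger receptor genes in aged injured, young injured, aged intact and young intact cord. Each point is 1 mouse (circle, square and triangle for replicates 1, 2 and 3), bars are means, and the dashed line marks a signal of 50; Cd36 lies between 2749.3 and 4658.2 in aged injured cord and at most at 14.9 in intact cord.

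The other Cd36 probes showed a like gap between the ages. Probe 1423166_at gave 2959.7, 1765.7 and 1930.8 in aged injured cord, against 572.8, 336.9 and 756.2 in young injured cord. Probe 1450884_at, a dimmer probe, gave 390.9, 182.9 and 198.2 in aged injured cord, against 46.0, 36.5 and 66.9 in young injured cord. Their log2 differences were 2.04 and 2.33, close to the 2.09 of the probe used. All 3 probes read under 15 on every intact array.

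Scarb1 and Scarb2, the relatives of Cd36, moved far less. Scarb1 encodes the receptor for high-density lipoprotein. It had 102.2, 79.5 and 94.3 in aged injured cord, 64.7, 58.9 and 63.8 in young injured cord, 42.9, 53.0 and 46.4 in aged intact cord, and 42.6, 36.2 and 35.4 in young intact cord. On the probe used, the injured arrays of each age lay above the intact ones. The aged injured arrays lay above the young injured ones, all within a narrow span near the cutoff. The rise after SCI was at least 1.83-fold in aged mice (adjusted p = 7.1e-05) and at least 1.25-fold in young mice (adjusted p = 0.000688), and aged injured cord was 1.47-fold above young injured cord (log2 difference 0.55, standard error 0.13). Its dimmest probe, 1416050_a_at, read 37.6, 45.1 and 50.3 in aged injured cord, against 36.1, 41.5 and 34.4 in young injured cord. That probe read 29.8 to 38.9 in aged intact and 26.6 to 34.6 in young intact cord. Injured and intact arrays thus overlapped on it at each age. On this probe and on 1437378_x_at the injured arrays of the 2 ages overlapped. The means of 1437378_x_at were 86.2 ± 12.8 in aged injured and 62.0 ± 11.1 in young injured cord (SD, n = 3 each).

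Scarb2 encodes LIMP-2, a lysosomal membrane protein that carries glucocerebrosidase to the lysosome. It was the only gene of the 10 above the cutoff in all 4 groups. Its signal was 2138.5, 1849.8 and 2110.6 in aged injured, 2012.8, 1789.9 and 2215.6 in young injured, 1468.9, 1506.8 and 1500.4 in aged intact, and 1436.6, 1453.1 and 1385.8 in young intact cord. It rose 1.36-fold in aged mice (adjusted p = 0.000428) and 1.40-fold in young mice (adjusted p = 0.000319). The arrays of the 2 ages overlapped after SCI, where the log2 difference was 0.02 (standard error 0.08). The other probe, 1460235_at, did not give the same picture: it read 1614.9, 1107.9 and 1262.9 in aged injured and 960.5, 904.1 and 1113.2 in young injured cord, and 414.6, 402.7 and 432.5 in aged intact and 500.0, 454.8 and 481.1 in young intact cord. By that probe aged cord was lower than young cord when intact, with no overlap, so no order of the ages can be given for Scarb2.

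Msr1 had 1715.9, 906.7 and 1037.1 in aged injured cord and 352.1, 278.8 and 435.9 in young injured cord. It had 18.2, 17.7 and 11.1 in aged intact cord and 15.8, 11.2 and 14.9 in young intact cord. As for Cd36, the intact groups overlapped far under the cutoff while the injured groups were apart. The rise after SCI was at least 23.5-fold in aged mice (adjusted p = 2.25e-08) and at least 7.0-fold in young mice (adjusted p = 1.97e-07). Aged injured cord was 3.35-fold above young injured cord, with a log2 difference of 1.75 (standard error 0.27) that stayed between 1.47 and 1.93 with each array left out in turn. The lowest of these values was that without aged injured replicate 1. Its other 3 probes had means of 656.4 ± 295.3, 326.6 ± 157.0 and 67.2 ± 23.0 in aged injured cord, against 160.7 ± 52.6, 86.6 ± 20.2 and 27.3 ± 2.1 in young injured cord (SD, n = 3 each), and on none of them did the 2 ages overlap. Marco, the other collagenous receptor, is known from macrophages of the lung and the splenic marginal zone. Both of its probes stayed at or under 11.8 on all 12 arrays, so nothing can be said of it beyond that bound.

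**Figure D2:**
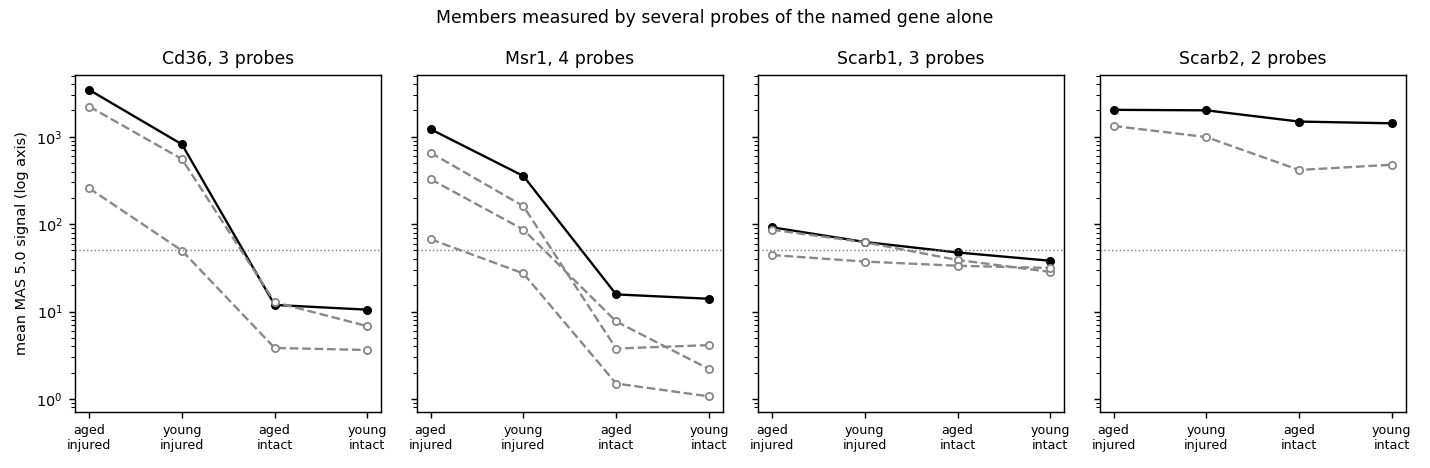
Mean MAS 5.0 signal (log axis, n = 3 mice a group) of every probe of Cd36, Msr1, Scarb1 and Scarb2, with the probe used in black, the other probes in grey with dashed lines, and the dotted line at 50. Lines join the 4 group means of a probe; the probes of Cd36 and Msr1 fall in parallel between aged and young injured cord, while those of Scarb2 differ.

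Cd68 encodes macrosialin, a glycoprotein of late endosomes and lysosomes that marks phagocytic cells. Its signal was 4224.5, 2984.1 and 3525.9 in aged injured, 2122.7, 1711.1 and 2522.4 in young injured, 74.3, 78.2 and 80.0 in aged intact, and 40.3, 42.8 and 31.9 in young intact cord. Within each age all injured arrays were above all intact ones, and within each state all aged arrays were above all young ones. It rose 45.7-fold after SCI in aged mice (adjusted p = 2.23e-09) and at least 41.8-fold in young mice (adjusted p = 9.01e-10). Aged injured cord was 1.69-fold above young injured cord (log2 difference 0.76, standard error 0.16).

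Stab1 and Mrc1 are endocytic receptors of tissue macrophages and of sinusoidal endothelium, for SPARC and modified lipoproteins in the case of Stab1 and for mannose-bearing glycoproteins in the case of Mrc1. Stab1 had 791.0, 444.5 and 677.9 in aged injured, 365.4, 231.4 and 468.1 in young injured, 17.3, 16 and 21.6 in aged intact, and 21.9, 15.9 and 14.5 in young intact cord. Mrc1 had 636.5, 261.4 and 293.6 in aged injured, 296.5, 161.5 and 310.2 in young injured, 46.1, 47.2 and 32.0 in aged intact, and 41.5, 37.4 and 31.7 in young intact cord. For both genes injured and intact arrays were fully apart, but the 2 ages overlapped after SCI. Stab1 rose at least 12.4-fold in aged (adjusted p = 1.03e-07) and at least 6.82-fold in young mice (adjusted p = 4.11e-07). Mrc1 rose at least 7.31-fold in aged (adjusted p = 1.19e-05) and at least 4.92-fold in young mice (adjusted p = 4.56e-05). The log2 difference between aged and young injured cord was 0.86 (standard error 0.28) for Stab1 and 0.57 (standard error 0.34) for Mrc1, and that of Mrc1 dropped to 0.17 without aged injured replicate 1.

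Vsig4, the receptor of liver and other resident macrophages for complement C3b, was above the cutoff in aged injured cord alone. It had 127.1, 65.7 and 83.2 there, against 16.5, 24.8 and 24.9 in young injured cord, 19.1, 20.8 and 10.7 in aged intact cord and 11.6, 16.8 and 12.8 in young intact cord. The 3 aged injured arrays were above all other 9, and the other groups shared a low range. The rise was at least 1.77-fold in aged mice (adjusted p = 5.94e-05). Vsig4 entered the tests only through aged injured cord, so its mean had to be highest there and this call is no support in itself. In young mice both means were under 50 and no fold is given (adjusted p = 0.0897). Aged injured cord was at least 1.77-fold above young injured cord. Cd163, the receptor for hemoglobin bound to haptoglobin, read 38.2, 29.3 and 28.3 in aged injured cord and 43.8, 35.2 and 65.3 in young injured cord, against 15.5 to 32.9 in all intact cords, and its group means all stayed under 50.

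In intact cord, Cd68 alone of the 8 genes tested was higher in aged than in young mice. This is 1 of 8, against a background of 0.542% of all genes called higher, and 2 had an unadjusted p under 0.05, as had 10.2% of all genes. Cd68 was at least 1.55-fold higher, with a log2 difference of 1.03 (standard error 0.16, adjusted p = 0.016). The call ended in 5 of the 6 fits without 1 intact array, those without young intact replicate 1 or 3 or aged intact replicate 1, 2 or 3 (adjusted p of 0.0531 to 0.0801), and with signals under 50 set to 50 (adjusted p = 0.0755). For the other 7 genes the adjusted p was 0.429 to 1. All 3 aged arrays lay above the young ones for 3 of the 10 genes, Cd68, Scarb1 and Scarb2, against 14.3% of the genes tested. Apart from Scarb2 and aged Cd68, all members had group means under 50 in intact cord, where a difference would be hard to detect.

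In injured cord the members spread from a log2 difference of 2.09 between the ages for Cd36 to 0.02 for Scarb2. The median of all genes was -0.043. The 5 genes without overlap between the ages, of 10, were Cd36, Msr1, Vsig4, Cd68 and Scarb1, against 14.0% of the genes tested, and the same number passed the threshold, against 4.41%. Nothing is read from these counts, since the genes were proposed on this contrast. For the difference between the changes after SCI in aged and in young mice, 0 of the 8 passed the limma threshold, against a background of 0.133% of all genes called higher, and 3 had an unadjusted p under 0.05, as had 16.2% of all genes. It uses the same injured arrays as the comparison of the ages after SCI, and for all but Scarb2 it subtracts an intact mean under 50, so its fitted values measure no fold. They also varied by probe, between 1.11 and 2.35 on the log2 scale for Cd36 and between -0.10 (probe 1425434_a_at) and 2.03 for Msr1.

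**Figure D3:**
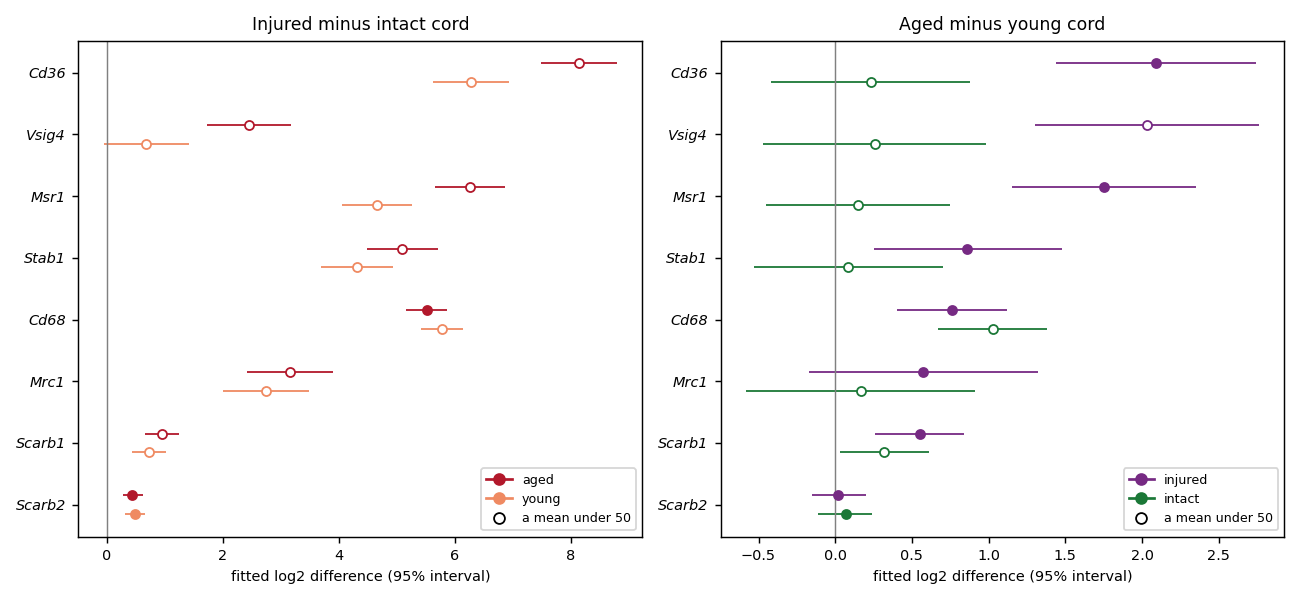
Fitted log2 differences with 95% intervals of the 8 genes tested, injured minus intact cord in aged and young mice (left) and aged minus young cord in injured and intact mice (right). Open points have a group mean under 50, where the value is no measure of a fold; after SCI the age difference runs from 2.09 for Cd36 to 0.02 for Scarb2, and in intact cord only Cd68 passed the test.

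The genes whose log2 signal followed that of Cd36 most closely over the 12 arrays were Galc, Edem1, Tmem106a, Sh3glb1 and Msr1, with a Pearson r of 0.9985 to 0.9966. For Msr1 they were Sh3glb1, Galc, Edem1, Cd36 and Msn (r of 0.9971 to 0.9963). Galc encodes the lysosomal enzyme that breaks down the myelin lipid galactosylceramide, and its mean was 937.4 in aged injured, 642.7 in young injured, 211.9 in aged intact and 198.0 in young intact cord. The arrays fall into injured and intact ones, which sets most of these values, so they mostly describe the difference between injured and intact cord.

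Other receptors for debris and dying cells were also higher after SCI. Of a list of 29, 20 had a mean above 50 in some group, 6 of them only through an injured group, so that their rise was favoured by the cutoff. In aged mice 16 rose and 3 fell (median log2 difference 1.95), against 35.6% and 39.9% of all genes (median -0.04). In young mice 16 rose and 1 fell (median 2.06), against 33.9% and 34.1% of all genes (median -0.005), and 3 fell without aged injured replicate 1. Trem2, a lipid-sensing receptor of microglia and macrophages, averaged 1896.5 ± 247.4 in aged injured and 69.8 ± 0.764 in aged intact cord (SD, n = 3 each), a 27.0-fold rise (adjusted p = 2.23e-09). In young mice it rose at least 25.9-fold (adjusted p = 6.32e-10). Cd5l, a secreted scavenger protein of macrophages that enters cells through CD36, had 2554.5, 1362.6 and 2004.2 in aged injured cord and 840.4, 666.3 and 1134.4 in young injured cord, and at most 9.2 on any intact array. It rose at least 38.2-fold in aged (adjusted p = 2.75e-08) and at least 17.2-fold in young mice (adjusted p = 1.31e-07). Megf10, an engulfment receptor of astrocytes, fell in both ages, to 215.6 ± 40.8 in aged injured against 352.6 ± 19.5 in aged intact cord (adjusted p = 0.000292) and to 251.3 ± 13.8 in young injured against 337.0 ± 19.6 in young intact cord (SD, n = 3 each, adjusted p = 0.0106). Tyro3 and Adgrb1, 2 receptors used for the uptake of dying cells, fell in aged mice (adjusted p = 0.00598 and 0.00729), although for Adgrb1 both means were under 50.

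Between the ages few of these 20 differed. This list and the others below were chosen with earlier results of these data known. Their counts and calls between the ages are therefore no support in themselves. In intact cord 2 of 20 were higher in aged mice, against 0.542% of all genes. Clec7a, the beta-glucan receptor dectin-1, had 133.8, 123.9 and 141.3 in aged intact cord, against 53.0, 58.1 and 34.2 in young intact cord (at least 2.66-fold, adjusted p = 0.00358). Trem2 had 70.5, 69.0 and 70.0 in aged intact cord, against 35.7, 29.1 and 30.3 in young intact cord (at least 1.40-fold, adjusted p = 0.00245). Both calls held with each array left out in turn. In injured cord 3 of 20 were higher in aged mice, against 4.41% of all genes. They were Havcr2, Trem2 and Itgav, with log2 differences of 0.69, 0.54 and 0.33 (adjusted p = 0.0315, 0.0358 and 0.0439). All 3 calls ended without aged injured replicate 1, and without 3, 8 and 10 other arrays left out singly, and 6 of the list passed without aged injured replicate 2. Cd5l was 2.22-fold higher in aged injured cord with no overlap of the arrays, but did not pass (adjusted p = 0.0855).

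A list of 30 ligands, partners and regulators of the receptors had 25 genes named on the array and 19 past the cutoff, 6 of them only through an injured group. After SCI 18 of these were called higher by limma in aged mice (median log2 difference 1.79), against 35.6% of all genes, and 19 in young mice (median 2.02), against 33.9%. Abca1, which exports cholesterol from loaded cells, averaged 4830.0 ± 289.6 in aged injured and 586.1 ± 20.1 in aged intact cord (SD, n = 3 each, 8.23-fold, adjusted p = 4.02e-09) and rose 11.3-fold in young mice (adjusted p = 9.01e-10). Plin2, which coats lipid droplets, rose 25.8-fold in aged (adjusted p = 2.36e-08) and 16.3-fold in young mice (adjusted p = 7.22e-08). Apoe, the main lipoprotein component of the nervous system, rose 2.66-fold in aged (adjusted p = 1.23e-07) and 2.96-fold in young mice (adjusted p = 6.97e-08).

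Of these 19 ligands, partners and regulators, 2 were called higher and 2 lower in aged injured cord, against 4.41% and 4.58% of all genes. Mfge8, which links phosphatidylserine on dying cells to integrins of the phagocyte, had the smallest adjusted p between the ages in this list. It had 2324.3, 1641.9 and 1631.4 in aged injured cord and 734.4, 521.7 and 825.8 in young injured cord, against 154.9, 153.9 and 165.2 in aged intact and 162.2, 177.9 and 163.5 in young intact cord. The ages overlapped in intact cord and were apart after SCI, where aged cord was 2.70-fold higher (log2 difference 1.43, standard error 0.17, adjusted p = 0.0028, held with each array left out). With only the aged and young injured arrays in the fit, 0 of 10511 genes passed. So neither this call nor any other between injured cords, in any list, held there. The change of Mfge8 after SCI was larger in aged mice by 1.52 on the log2 scale (standard error 0.24, adjusted p = 0.0279), a call that ended in 8 of the 12 fits without 1 array (adjusted p of up to 0.094). After SCI, Plin2 was 1.80-fold higher in aged mice (adjusted p = 0.0324), a call lost without aged injured replicate 1 or 3, young injured replicate 1 or 2, or young intact replicate 1. Csf1 and Il34, the ligands of the receptor that maintains macrophages and microglia, were lower in aged injured cord. Csf1 averaged 350.4 ± 41.7 in aged and 487.8 ± 10.9 in young injured cord (SD, n = 3 each, adjusted p = 0.0185, lost without young injured replicate 1, 2 or 3). Il34 averaged 34.6 ± 4.41 in aged and 65.7 ± 5.6 in young injured cord (SD, n = 3 each, adjusted p = 0.0138). Il34 entered the tests only through young injured cord and its other group means were under 50, so the cutoff favoured this call. Between intact cords 1 of the 19 was called higher in aged mice, against 0.542% of all genes. This was Abca1, 1.5-fold higher in aged mice (adjusted p = 0.0208), and the call ended without each of the 6 intact arrays in turn.

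Summed markers of pan-myeloid cells, border and perivascular macrophages, monocytes and microglia were higher after SCI at both ages, as given below list by list. Those of neutrophils overlapped between injured and intact cord in aged mice. The summed signal of 10 pan-myeloid genes was 24057.9 to 27392.6 in aged injured, 19843.0 to 25409.6 in young injured, 3471.4 to 3871.0 in aged intact and 2091.8 to 2356.0 in young intact cord. All 10 were called higher after SCI at both ages, against 35.6% of all genes in aged and 33.9% in young mice. The ages overlapped in injured cord. Between aged and young injured cord 3 of the 10 were higher, against 4.41% of all genes, with a median log2 difference of 0.28. The count was 1 without aged injured replicate 1 or 3 or young injured replicate 1 or 2, and 5 without aged injured replicate 2. Between intact cords 7 were higher, against 0.542%, with a median of 0.77, and the count was 3 without young intact replicate 3 and 4 without young intact replicate 2 or aged intact replicate 2. A sum of 6 genes of border and perivascular macrophages was 4365.2 to 7812.1 in aged injured and 2186.7 to 3761.0 in young injured cord, without overlap, against 307.5 to 403.6 in aged intact and 350.7 to 376.5 in young intact cord. In that list 3 of 6 were higher in aged injured cord, F13a1, Pf4 and Folr2, against 4.41% of all genes, and 1 without young injured replicate 1 or 2. The other members did not pass, with means of 1836.4 in aged and 1316.9 in young injured cord for Ms4a7, 55.0 and 58.7 for Lyve1, and 57.5 and 67.7 for Cbr2. The 3 monocyte genes on the array summed to 413.0 to 1158.3 in aged injured and 274.9 to 463.5 in young injured cord. Their sums were 31.0 to 106.6 in aged intact and 76.3 to 84.9 in young intact cord. For the 3 neutrophil genes on the array, sums were 946.6 to 3361.2 in aged injured and 95.7 to 1141.6 in aged intact cord. In young mice they were 858.8 to 1846.0 in injured and 382.1 to 595.0 in intact cord. The sum of 7 microglial genes was 2482.3 to 3269.0 in aged injured and 2689.3 to 2961.7 in young injured cord, so the ages overlapped. It was 1058.0 to 1080.6 in aged intact and 752.2 to 839.2 in young intact cord. Of the 7, 4 rose past the threshold after SCI in aged mice and 2 fell, against 35.6% and 39.9% of all genes. The 2 became 1 without aged intact replicate 2. Young mice had 4 and 0, against 33.9% and 34.1%. Mean signals in aged injured and aged intact cord were 39.4 and 72.9 for Siglech, and 142.0 and 202.7 for Sall1. These marker lists too were chosen with earlier results of these data known, so nothing is read from their counts between the ages. The part of these cell types in the receptor signals was not tested.

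**Figure D4:**
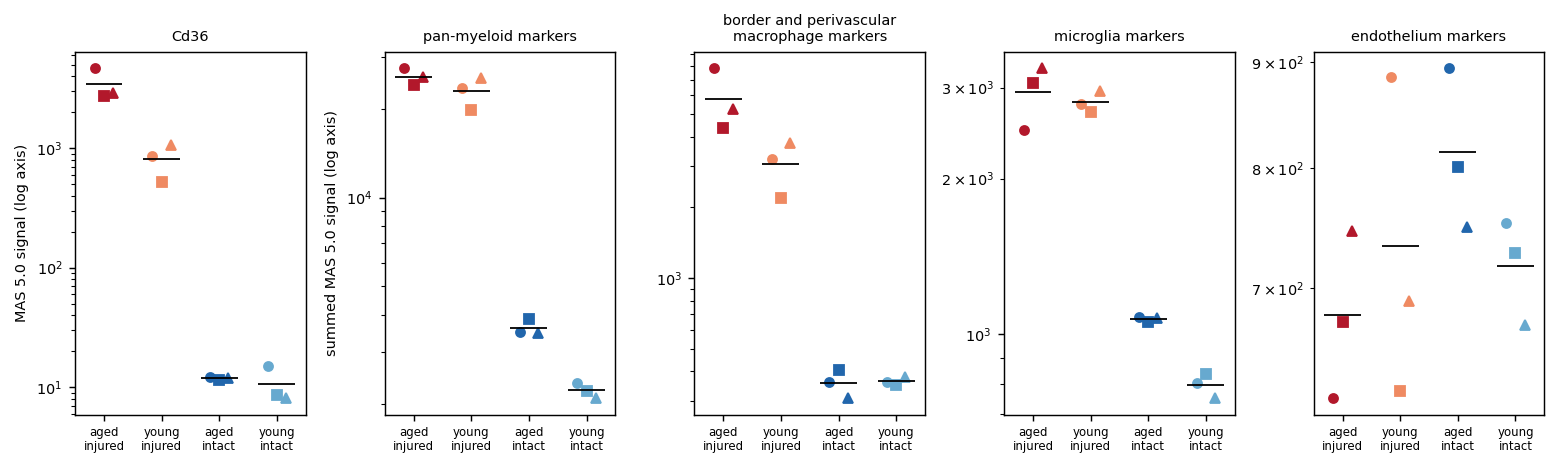
Signal of Cd36 and summed signals of marker lists for myeloid cells in general, border and perivascular macrophages, microglia and endothelium (log axes that differ between panels) in the 4 groups. Each point is 1 mouse (circle, square and triangle for replicates 1, 2 and 3) and bars are means; aged and young injured cords are apart for Cd36 and for border and perivascular macrophages (4365.2 to 7812.1 and 2186.7 to 3761.0) and overlap for the other lists.

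Summed markers of other cells known to make these receptors overlapped between the ages after SCI or were lower in aged mice. Of 4 adipocyte markers, 3 were on the array and 0 had a mean above 50 in any group (sums of 5.4 to 39.1 over all arrays). The sum of 4 skeletal muscle genes was 39.4 to 69.1 in aged injured and 75.2 to 183.3 in young injured cord, and that of 4 platelet genes 72.8 to 101.3 in aged injured and 87.4 to 99.4 in young injured cord. The 7 endothelial genes summed to 619.7 to 745.5 in aged injured and 624.6 to 885.2 in young injured cord, and to 749.4 to 893.4 in aged intact and 672.3 to 752.9 in young intact cord. Among them Flt1 was higher in aged injured cord (66.1 to 75.1, against 56.0 to 65.1 in young injured cord). So was Pecam1, under 50 throughout (22.7 to 24.2, against 2.9 to 16.1). Slco1a4 was lower (157.5 to 258.2, against 284.9 to 353.3), and the arrays of the others overlapped. Of 6 endothelial genes tested, 0 were called higher and 0 lower, against 4.41% and 4.58% of all genes. Neuronal markers were lower after SCI and varied widely in aged mice, with sums of 1108.6 to 7983.7 in aged injured and 5577.3 to 8502.2 in young injured cord, against 15315.4 to 16217.1 in all intact cords. The 1108.6 was that of aged injured replicate 1. The sum of 4 astrocyte genes was 5690.6 to 9034.9 in aged injured and 10502.7 to 11741.5 in young injured cord, without overlap, and 2 of the 4 were called lower in aged mice, against 4.58% of all genes. The lowest of these sums too was that of aged injured replicate 1. The part of these differences in the receptor values was not tested.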

How the data were processed

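Spinal cord RNA of 12 mice was hybridized to 12 Affymetrix mouse genome arrays. The deposited values are linear signal intensities that the authors computed from the scans by MAS 5.0 (MAS5 in the submitters' processing notes) and scaled between arrays. Of 45101 probes, 34958 were paired with 1 gene by the platform annotation, 932 with several and 9211 with none. A genome build for the array was not given in the sources used here.

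For each of 18194 genes the probe with the highest mean over all arrays was used, and 10511 with a group mean above 50 were kept. Their log2 intensities were fitted with limma 3.58.1 in R 4.3.3, with 1 mean per group and a trend in the spread, and p-values were adjusted by Benjamini-Hochberg over all genes. Group, age and state came from the labels. The script was tested on simulated data. The 10 members and all gene lists were chosen with earlier results of these data known. Besides the members, the text names of each list at most the 5 called genes of smallest adjusted p per direction and comparison, and for Cd36 and Msr1 the 5 genes of highest r; Cd5l was named between the ages after its values were seen. Folds are ratios of geometric means. Alternatives were quantile normalization, other filters, a floor of 50, an offset of 16, no trend, other probes, only the arrays compared, the replicate number as a block, and each array left out. The number of arrays limits the precision. A comparison of the receptor proteins was not made.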

Additional observations from a re-analysis of the deposited data

How the results depend on the processing

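The calls after SCI kept their direction and their side of the threshold for each of the 8 genes under every alternative run, which were quantile normalization, no filter on signal, a filter at 100 (6 genes left), a floor of 50, an offset of 16, no trend, the mean of all probes, only the arrays compared, the replicate number as a block and each array left out. An exception in number only is that 8 genes were higher in young mice with no filter and without young injured replicate 1 or 2, where Cd163 was tested too. In intact cord, the count of genes higher in aged mice was 1, and it was 0 with a floor of 50 and 0 to 1 with an array left out. In injured cord, the count past the threshold was 5, and it was 3 with a filter at 100, where Scarb1 and Vsig4 were no longer tested, 0 with only the arrays compared, where 0 of all genes passed limma and 1974 had an unadjusted p under 0.05, and 3 to 6 with an array left out. The count for a larger change in aged mice was 0, and it was 2 with a floor of 50, 2 with an offset of 16 and 0 to 3 with an array left out, with 3 without aged injured replicate 2 (Cd36, Msr1 and Vsig4). Small differences between intact cords turned sign: Cd36 to -0.02 with probe 1450884_at, Msr1 to -0.04 with probe 1422062_at and to between -0.0049 and 0.38 with an array left out, Stab1 to between -0.04 and 0.26 with an array left out, and Scarb2 to -0.07 with the mean of all probes and -0.20 with probe 1460235_at. The cause was not tested, and none of these passed the threshold. With the replicate block the counts were 8 and 7 after SCI in aged and young mice, 1 between intact cords, 6 between injured cords and 0 for the difference between changes. Deviations from the group means correlated at an r of -0.113 to 0.667 over 18 pairs of samples with the same number (mean 0.072). For 36 pairs with different numbers r was -0.628 to 0.323 (mean -0.038). Whether samples of the same number share a batch cannot be told from these values. Signals under 50, as for most members in intact cord, limit what can be said there.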
